A study of Cladosporium europaeum with 50 samples.

Results

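Cytochrome P450 monooxygenases were followed in the mycelium of Cladosporium europaeum F32, a filamentous fungus whose source was a soil long polluted by polychlorinated biphenyls (PCBs). Genes were chosen by the words "cytochrome P450" or "benzoate 4-monooxygenase" in the deposited annotation, which gave 6 genes among the 920 genes with a row in the authors' comparisons, of which 705 are annotated. All cultures grew in liquid mineral medium with 5 g/L glucose, either without PCB (controls, 0 mg/L) or with 6 mg/L of a single congener, and were sampled after 24 h or 96 h. The congeners were PCB52, PCB101, PCB153 and PCB180, a tetra-, a penta-, a hexa- and a heptachlorobiphenyl. Each of the 10 groups has 5 labelled replicates, 50 samples in all, and nothing in the labels ties a replicate to a culture of its own, so the spread behind the p-values may be technical.

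Cytochrome P450 enzymes hold a haem group and insert an oxygen atom from O2 into their substrate, with electrons that reach them from NADPH-cytochrome P450 reductase or from cytochrome b5 and its reductase. In filamentous fungi they form large families that take part in sterol synthesis, in secondary metabolism and in the first oxidation of foreign aromatic compounds. Benzoate 4-monooxygenase, known as BphA in Aspergillus, hydroxylates benzoate in the para position, and its product enters the protocatechuate branch of the beta-ketoadipate pathway, where the ring is opened.

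The deposited files hold comparisons of groups, and values of single samples were not used, so each value below is a log2 fold change between 2 groups with its standard error. A gene has a row against the control of the same hour when its adjusted p was under 0.05 and its absolute log2 fold change was at least 1, and "rose" and "fell" refer to such rows. The files hold only genes that passed in some comparison, so each P450 gene found had to have changed somewhere. P450 genes that passed in no comparison are not among these rows, and the counts below are not shares of the fungus's P450 genes. Library depth is unknown. The 6 P450 genes had mean normalized counts between 28.8 and 2867 (median 662), and all 920 genes between 10.2 and 119992 (median 302), as given in the authors' deposited table.

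The P450 genes had rows only at 96 h and only under PCB153 and PCB180, the congeners with the most chlorine atoms. Under PCB153, 3 of them rose and none had a row for a fall, where 1.82% of the 10874 genes tested in that comparison rose and 0.579% fell. Under PCB180, 3 rose and 1 fell, where 4.59% of the 11313 genes tested rose and 2.67% fell. Because the genes were found among rows that had already passed, nothing is read from these counts against the background. Among rises alone, the median log2 fold change of the 3 P450 genes was 2.01 under PCB153, against 1.68 over all 198 rises, and of the 3 under PCB180 1.43, against 1.59 over all 519 rises, as given in the authors' deposited table. With falls included and the sign kept, the medians were 2.01 against 1.44 over all 261 rows and 1.36 against 1.23 over all 821 rows, as given in the authors' deposited table, so under PCB180 the order of the medians turns with the choice. Benzoate 4-monooxygenase was the single gene of the 6 with a row under both congeners. The other comparisons held few rows of any gene. At 96 h, 0.00884% of tested genes had a row under PCB52 and 0.0796% under PCB101, and at 24 h 0.00884% under PCB52, 0.053% under PCB153 and 0.0177% under PCB180, with no P450 gene among them. For PCB101 at 24 h the files used here hold no row.

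**Figure D1:**
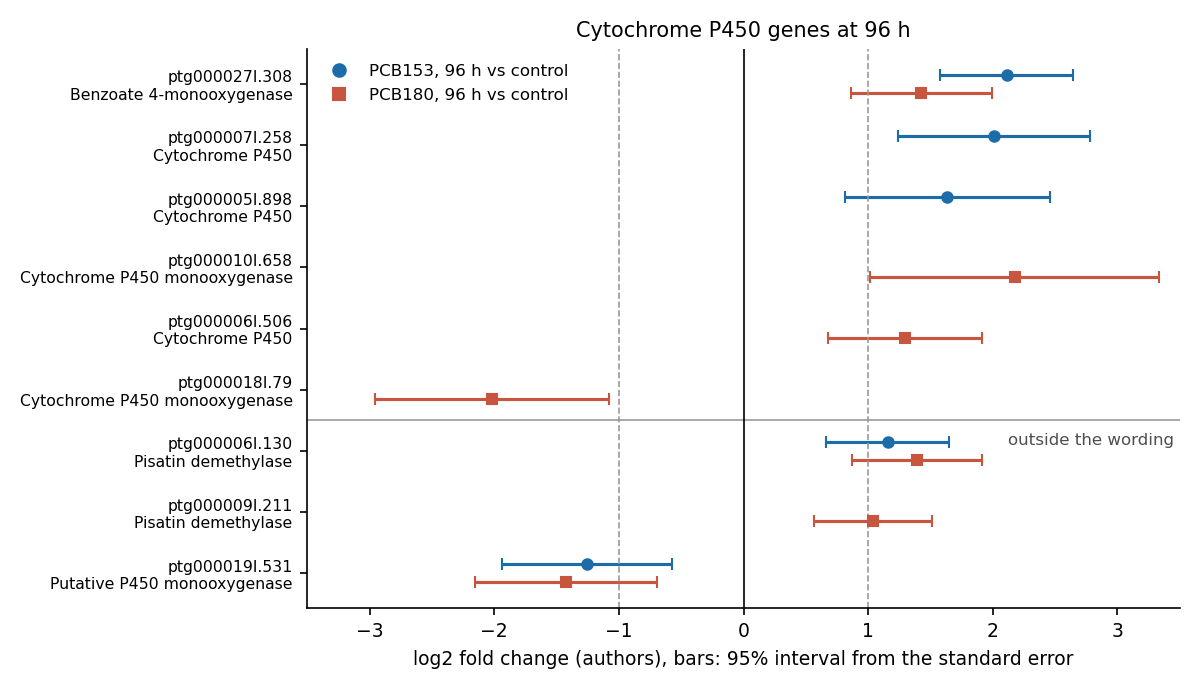
Log2 fold changes of P450 genes against the 96 h control (horizontal axis), one gene per line, for PCB153 (circles) and PCB180 (squares). Bars are 95% intervals from the authors' standard errors, dashed lines mark a log2 fold change of 1 in either direction, and the 3 genes under the grey line are P450 genes by another wording; of the 6 genes above it, ptg000018l.79 alone lies below 0.

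Benzoate 4-monooxygenase (ptg000027l.308) was the most abundant of the 6 genes, with a mean normalized count of 2867, at percentile 92.8 of all 920 genes, as given in the authors' deposited table. Under PCB153 it rose 4.32-fold, with a log2 fold change and standard error of 2.11 ± 0.27 (95% interval 1.58 to 2.64) at an adjusted p of 9.03e-11, as given in the authors' deposited table. Under PCB180 it rose 2.69-fold, a log2 fold change of 1.43 ± 0.29 (0.866 to 1.99) at an adjusted p of 0.000106, as given in the authors' deposited table. By size it was only the 41st of 198 rises under PCB153 and the 332nd of 519 under PCB180. By its unadjusted p it ranked 1st of 261 rows and 67th of 821 rows, and the median standard errors of all rows were 0.39 under PCB153 and 0.41 under PCB180, as given in the authors' deposited table.

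The rise of benzoate 4-monooxygenase was smaller under the heptachlorinated PCB180 than under the hexachlorinated PCB153, at the same dose and hour, by an amount that did not pass the threshold. The difference of the log2 fold changes, PCB180 minus PCB153, was -0.68 ± 0.28 (95% interval -1.23 to -0.135), from a two-sided normal test that takes a correlation of 0.5 between comparisons sharing the control. Its unadjusted p was 0.0145 and its Benjamini-Hochberg adjusted p 0.276 over the 171 genes with rows in both comparisons, and the intervals of the fold changes overlap. With an assumed correlation of 0.75 the same normal test gave an adjusted p of 0.0106. With 0.53, matched to the authors' direct comparison of the 2 congeners after seeing the data, it gave 0.225. A correlation of 0.75 is above 0.714, the highest that 2 to 5 libraries per group give with equal variance. Of these 171 genes, 18 had an unadjusted p under 0.05 and none an adjusted p under 0.05. All 171 passed under both congeners and in the same direction. Genes with a row under only 1 of the 2 congeners are left out, so these counts do not describe all genes. The authors also compared PCB180 with PCB153 directly, with 1 row in that comparison (0.00884% of tested genes). It is an L-galactonate dehydratase (ptg000017l.227), named after its value was seen, and not a P450 gene. Its log2 fold change was 0.86 ± 0.16, as given in the authors' deposited table. That is below 1, so the fold threshold of the rows against control did not hold for this row.

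Of the other P450 genes, 2 rose under PCB153 and had no row under PCB180. The cytochrome P450 ptg000007l.258 rose 4.03-fold, a log2 fold change of 2.01 ± 0.39 (1.24 to 2.78) at an adjusted p of 0.000189, with a mean normalized count of 926, as given in the authors' deposited table. The cytochrome P450 ptg000005l.898 rose 3.11-fold, a log2 fold change of 1.64 ± 0.42 (0.812 to 2.46) at an adjusted p of 0.00947, with a mean normalized count of 235, as given in the authors' deposited table. Their annotation names no substrate.

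The remaining 3 genes changed under PCB180 and had no row under PCB153. The cytochrome P450 monooxygenase ptg000010l.658 rose 4.52-fold, a log2 fold change of 2.18 ± 0.59 (1.02 to 3.34) at an adjusted p of 0.00715, with the widest interval of the 6 genes, as given in the authors' deposited table. The cytochrome P450 ptg000006l.506 rose 2.45-fold, a log2 fold change of 1.30 ± 0.31 (0.679 to 1.91) at an adjusted p of 0.00219, and had the lowest mean normalized count, 28.8, as given in the authors' deposited table. The cytochrome P450 monooxygenase ptg000018l.79 fell 4.05-fold, a log2 fold change of -2.02 ± 0.48 (-2.96 to -1.08) at an adjusted p of 0.00161, with a mean normalized count of 1162, as given in the authors' deposited table. It was the 14th largest of the 302 falls under PCB180.

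**Figure D2:**
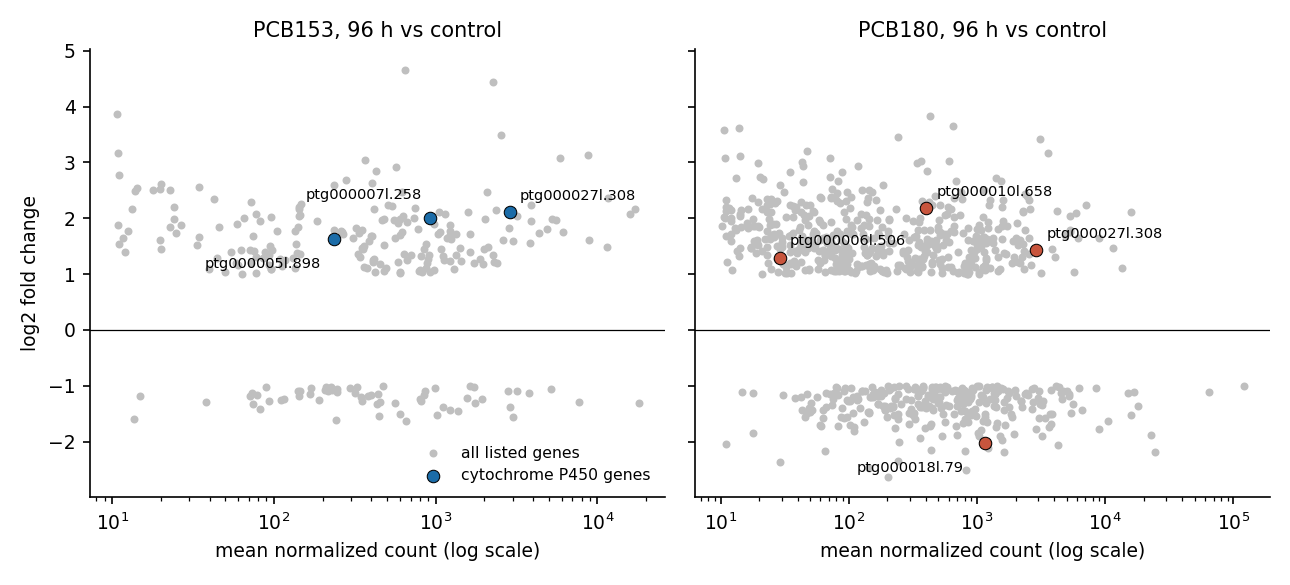
Log2 fold change against the 96 h control (vertical axis) by mean normalized count (horizontal axis, log scale) for every gene with a row under PCB153 (left) and PCB180 (right), with the P450 genes in colour. The gap around 0 is the fold threshold of the deposited rows; ptg000006l.506 sits at a mean normalized count of 28.8 and ptg000027l.308 at 2867.

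A missing row leaves room for a change below the thresholds, and how much room follows from the standard error. Standard errors were compared for genes with rows in more than 1 comparison against the 96 h control. Over the 171 shared genes the standard error under PCB180 was 1.05 times that under PCB153 (range 1.03 to 1.08), and over 9 shared genes that under PCB101 was 1.0 times that under PCB153, while for PCB52 the scaling rests on 1 shared gene, as given in the authors' deposited table. With the standard error carried over in this way, ptg000007l.258 would have had a row under PCB180 at an absolute log2 fold change above 1.16 and ptg000005l.898 above 1.24, both below their log2 fold changes under PCB153. The lower 95% limit under PCB153 was above the bound for ptg000007l.258 (1.24) and below it for ptg000005l.898 (0.812). For PCB153 the bounds were 1.75 for ptg000010l.658, 1.42 for ptg000018l.79 and 1 for ptg000006l.506, all smaller than the size of their changes under PCB180. Their 95% intervals under PCB180 (1.02 to 3.34, -2.96 to -1.08 and 0.679 to 1.91) all reach to sizes below these bounds. For benzoate 4-monooxygenase (ptg000027l.308) the bound was 1.11 under PCB101 and 1.21 under PCB52, both below its lower 95% limit of 1.58 under PCB153. Both bounds lie inside its 95% interval under PCB180 (0.866 to 1.99), so a change of that size under PCB101 or PCB52 could have gone without a row. For the other 5 genes it ran from 1.22 to 2.29 under PCB101 and from 1.33 to 2.49 under PCB52. The bounds limit the estimate behind a missing row and not the true change, because the error of that estimate is not counted. An interval that lies above a bound therefore does not show a difference between congeners. These bounds are not tests, and the differences between congeners for the 5 genes with 1 row each were not tested. Nor were those of benzoate 4-monooxygenase with PCB101 or PCB52.

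The files hold 3 further genes named as P450 enzymes in other words. One was matched by the wider wording listed among the alternatives (ptg000019l.531), and both pisatin demethylases were chosen after their values were seen. Pisatin demethylase is known as a P450 from Fusarium, where it detoxifies the pea compound pisatin. The pisatin demethylase ptg000006l.130 rose by a log2 fold change of 1.16 ± 0.25 under PCB153 (adjusted p 0.00114) and of 1.39 ± 0.27 under PCB180 (adjusted p 3.83e-05), as given in the authors' deposited table. The pisatin demethylase ptg000009l.211 rose by 1.04 ± 0.24 on the log2 scale under PCB180 (adjusted p 0.00128), as given in the authors' deposited table. The putative P450 monooxygenase ptg000019l.531 fell under both congeners, with log2 fold changes of -1.26 ± 0.35 for PCB153 (adjusted p 0.0195) and -1.42 ± 0.37 for PCB180 (adjusted p 0.00464), as given in the authors' deposited table. For both genes with rows under both congeners, the difference PCB180 minus PCB153 was within its error, at 0.23 (95% interval -0.273 to 0.742) for ptg000006l.130 and -0.17 (-0.876 to 0.537) for ptg000019l.531, each with an adjusted p of 0.997 by the same normal test. With these genes, 4 rose and 1 fell under PCB153, where 1.82% of tested genes rose and 0.579% fell. Under PCB180, 5 rose and 2 fell, where 4.59% rose and 2.67% fell. These genes too were found among rows that had already passed, so nothing is read from these counts.

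Catabolic and secondary metabolite genes of fungi often lie in clusters, and the gene numbers on a contig are the one guide to position here. Within 5 gene numbers of the 6 P450 genes, 7 other genes had rows, all of them annotated. That is 11.7% of 60 gene numbers, where 8.13% of the 11313 tested genes had a row in some comparison, so nothing is read from the count. The gene next to ptg000007l.258 is phenol 2-monooxygenase (ptg000007l.259), a flavin enzyme that turns phenol into catechol. It rose by a log2 fold change of 2.44 ± 0.50 under PCB101, 3.49 ± 0.50 under PCB153 and 2.33 ± 0.53 under PCB180, as given in the authors' deposited table. Its difference PCB180 minus PCB153 was -1.17 (95% interval -2.18 to -0.153, adjusted p 0.379 by the same normal test), which did not pass the threshold. A subunit of the general transcription factor IIA (ptg000007l.263) rose by 1.65 ± 0.58 under PCB180, as given in the authors' deposited table.

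Around ptg000018l.79 the genes with rows moved in its direction. The adjacent NADH-cytochrome b5 reductase 1 (ptg000018l.78), which passes electrons from NADH to cytochrome b5, had almost the same log2 fold change, -2.02 ± 0.45 at an adjusted p of 0.00088 under PCB180, as given in the authors' deposited table. A 3-hydroxyacyl-CoA dehydrogenase (ptg000018l.77), an enzyme type of fatty acid oxidation, fell by 1.27 ± 0.35 and a UBX domain protein (ptg000018l.74) by 1.17 ± 0.28 on the log2 scale under PCB180, as given in the authors' deposited table. In the wider window of 10 gene numbers, 5 genes had rows, all falls under PCB180, where 2.67% of all tested genes fell. That window held 3 genes with rows near ptg000007l.258, all rises, and 3 near ptg000006l.506, of which 2 rose and 1 fell. These loci were not tested, and nothing is read from the counts. Near ptg000006l.506, an aldo/keto reductase (ptg000006l.511), of a family that reduces carbonyl groups, rose by 1.13 ± 0.27 under PCB180, as given in the authors' deposited table. Near ptg000005l.898, a HAT dimerisation domain protein (ptg000005l.895) went the other way, with log2 fold changes of -1.14 ± 0.36 under PCB153 and -1.13 ± 0.38 under PCB180, as given in the authors' deposited table. No gene within 5 numbers of ptg000010l.658 or of benzoate 4-monooxygenase (ptg000027l.308) had a row. Next to the putative P450 monooxygenase ptg000019l.531, outside the wording, a protein with a glutathione S-transferase N-terminal domain (ptg000019l.530) fell under both congeners, with log2 fold changes of -1.07 ± 0.25 under PCB153 and -1.76 ± 0.26 under PCB180, as given in the authors' deposited table.

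**Figure D3:**
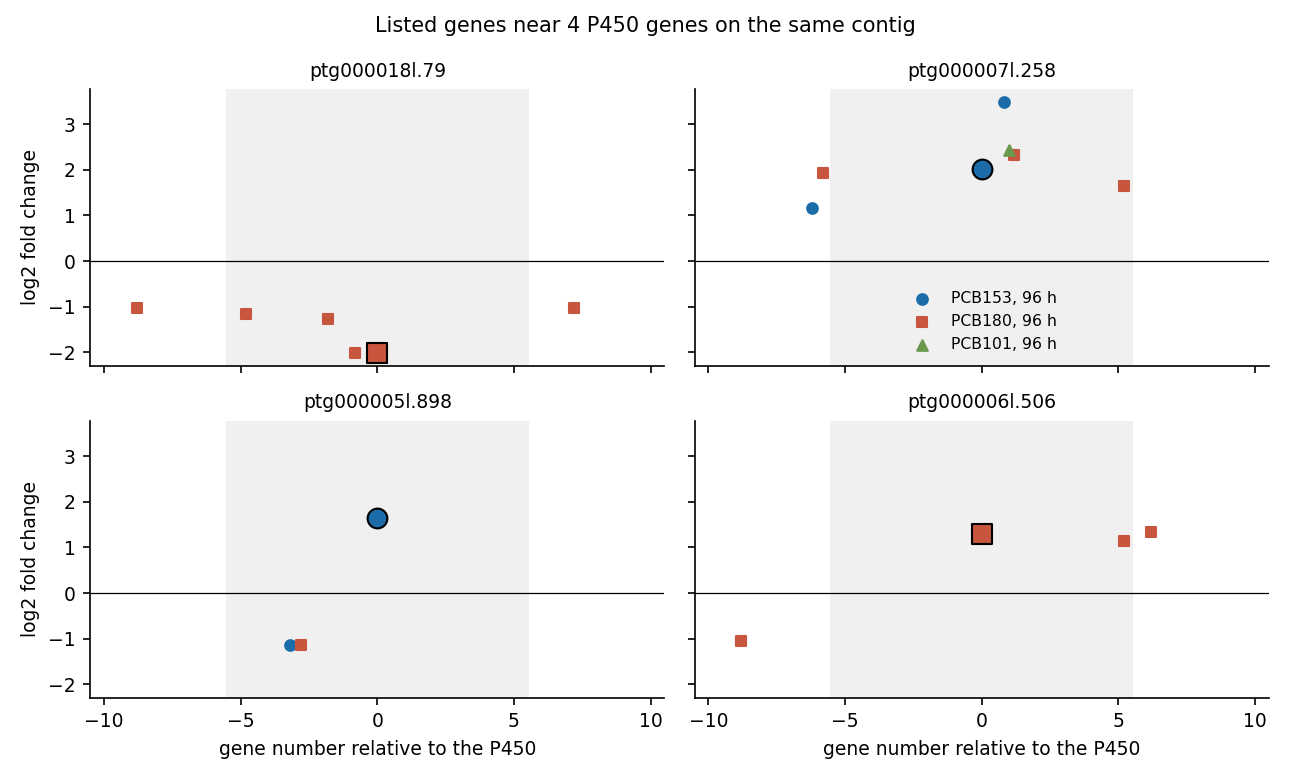
Log2 fold changes (vertical axis) of genes with a row by their gene number relative to a P450 gene on the same contig (horizontal axis), for 4 P450 genes drawn as large outlined symbols at 0, with colour and shape giving the congener and points shifted slightly sideways by congener. The grey band spans 5 gene numbers on each side. Over the 10 gene numbers drawn on each side, all 5 neighbours of ptg000018l.79 with rows lie below 0, and ptg000006l.506 has 2 above and 1 below.

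The annotation was also searched for the electron carriers that serve P450 enzymes. Like the P450 genes, the genes of this and the following lists were found only among genes with a row, so each had to have changed somewhere, and nothing is read from their counts against the 1.82% of tested genes that rose and 0.579% that fell under PCB153, or the 4.59% and 2.67% under PCB180. Of 3 genes matched by name, 1 rose under PCB153, and 2 rose and 1 fell under PCB180. A cytochrome b5 haem-binding domain protein (ptg000019l.135) rose by a log2 fold change of 2.12 ± 0.61 under PCB153 and 2.32 ± 0.65 under PCB180, as given in the authors' deposited table. Another (ptg000008l.474) rose by 1.65 ± 0.56 under PCB180, as given in the authors' deposited table. The domain occurs in other proteins than cytochrome b5 itself. The gene that fell was the NADH-cytochrome b5 reductase next to ptg000018l.79, and no gene named as an NADPH-cytochrome P450 reductase had a row. The words set for haem synthesis matched only these cytochrome b5 domain proteins.

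Lists of further enzyme types, matched only by words in the annotation, had rows under PCB101, PCB153 and PCB180. Both intradiol dioxygenases, which open catechol rings, rose under PCB101 and PCB153, and one of them also under PCB180. For ptg000021l.252 the log2 fold changes were 3.67 ± 0.71 under PCB101, 4.43 ± 0.71 under PCB153 and 2.14 ± 0.75 under PCB180, as given in the authors' deposited table. For ptg000008l.232 they were 1.22 ± 0.30 under PCB101 and 1.48 ± 0.30 under PCB153, as given in the authors' deposited table. Epoxide hydrolases open epoxides, a common product of P450 enzymes. The epoxide hydrolase domain protein ptg000010l.624 rose by a log2 fold change of 1.5 ± 0.32 under PCB153 and 2.31 ± 0.34 under PCB180, and bifunctional epoxide hydrolase 2 (ptg000021l.294) by 1.42 ± 0.47 under PCB180, as given in the authors' deposited table. Of the genes named in full as glutathione S-transferases, which attach glutathione to reactive products, 2 fell under PCB180, GstA (ptg000010l.367) by 1.41 ± 0.40 and ptg000015l.134 by 1.12 ± 0.32 on the log2 scale, as given in the authors' deposited table. The list of other monooxygenases held 6 genes, with 2 that rose and 2 that fell under PCB153, and 2 that rose and 3 that fell under PCB180. Phenol 2-monooxygenase was the largest rise under both, and the putative P450 monooxygenase ptg000019l.531 is among the falls. Further members were squalene monooxygenase (ptg000007l.604), an early step of sterol synthesis, at 1.59 ± 0.48 under PCB153, and an ornithine monooxygenase of siderophore synthesis (ptg000016l.11) at 1.5 ± 0.49 under PCB180, on the log2 scale, as given in the authors' deposited table. A protein with a dihydroxypyridine monooxygenase domain (ptg000002l.374) fell under both congeners, with log2 fold changes of -1.03 ± 0.30 and -1.48 ± 0.32, as given in the authors' deposited table.

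The rest of the lists held single genes or genes matched by part of a name. The O-methyltransferase ptg000005l.141 fell under both congeners, with log2 fold changes of -1.63 ± 0.42 for PCB153 and -1.5 ± 0.45 for PCB180, as given in the authors' deposited table. Beside squalene monooxygenase, the sterol words matched a sterol glucosyltransferase (ptg000005l.85) at -1.94 ± 0.42 under PCB180, as given in the authors' deposited table. The dehydrogenase words matched 3 genes under PCB180, with a short-chain dehydrogenase/reductase (ptg000009l.233) at 1.61 ± 0.56, a glutamate semialdehyde dehydrogenase of proline metabolism (ptg000019l.471) at 1.31 ± 0.43 and an aldehyde dehydrogenase domain protein (ptg000027l.443) at -1.19 ± 0.34, as given in the authors' deposited table. The secondary metabolism words matched a gene annotated both as terpene cyclase PaxB and as ribosomal protein S3 (ptg000015l.603), at 2.08 ± 0.62 under PCB180, as given in the authors' deposited table.

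**Figure D4:**
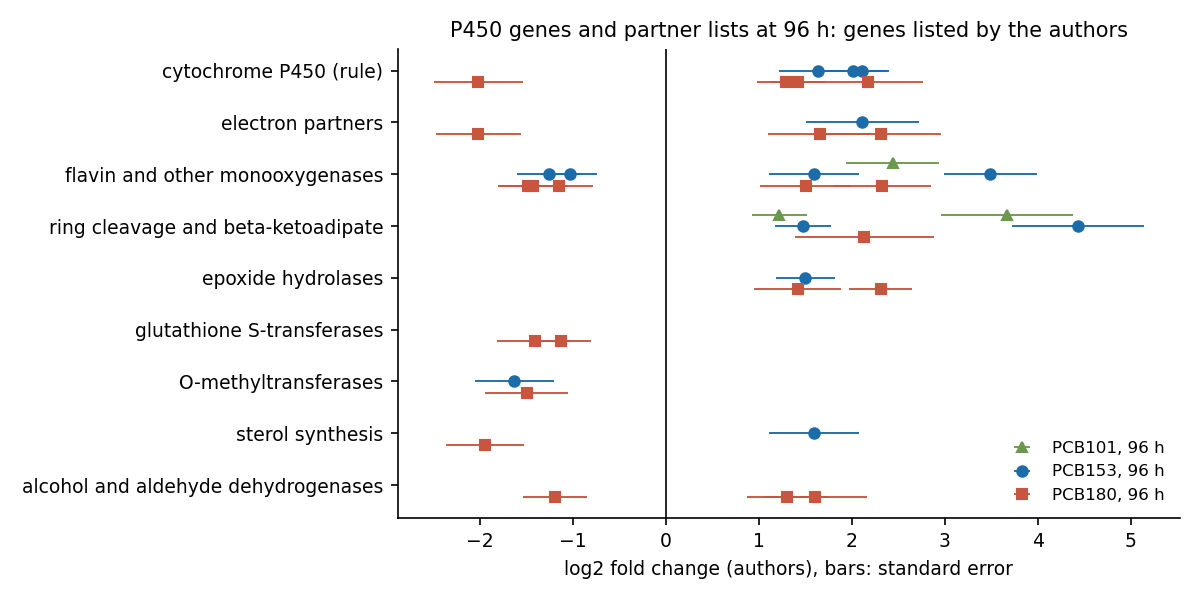
Log2 fold changes against the 96 h control (horizontal axis, bars are standard errors) of the P450 genes and of lists of genes matched by words in the annotation, one list per line, for PCB101 (triangles), PCB153 (circles) and PCB180 (squares). The 2 genes named as glutathione S-transferases lie below 0 and the 2 epoxide hydrolases above it; a gene in more than 1 list is drawn in each.

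Among the 114 other annotated genes with rows under both congeners, the gene with log2 fold changes nearest to those of benzoate 4-monooxygenase (ptg000027l.308) was a carboxymuconolactone decarboxylase-like protein (ptg000015l.273). Its log2 fold changes were 2.0 under PCB153 and 1.47 under PCB180, as given in the authors' deposited table, at a Euclidean distance of 0.12 over these 2 comparisons. The enzyme it is named for follows ring opening in the protocatechuate branch of bacteria. An FAD-binding PCMH-type protein (ptg000032l.13) and the mitochondrial ribosomal protein mS33 (ptg000010l.315) came next, at distances of 0.27 and 0.33. Both comparisons share their control, and 2 values per gene are a thin basis for likeness.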

How the data were processed

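Polyadenylated RNA of 50 mycelium samples was extracted with TRIzol, per the labels' protocols. The sources used here name no aligner, counter, genome build, annotation source or test program. Per gene and comparison the authors deposited, per the file headers, a mean normalized count (a signal, never below 0), a log2 fold change with standard error, a test score and p-values before and after adjustment, in 1102 rows; a shorter copy, rounded, adds the annotation. No values per sample, totals or sequences were used, and no gene was refitted. The 6 genes, the 10 partner lists and the rules were chosen with earlier results of these data known. Named are the P450 genes, genes within 5 gene numbers of them, up to 4 genes per partner list, and the 3 nearest in fold change.

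The number of tested genes was taken as the whole number for which its product with unadjusted over adjusted p gives whole ranks (tolerance 0.0001). Intervals are 95% normal intervals from the authors' standard errors. A bound for a gene without a row is the larger of 1 and its scaled standard error times the normal quantile at 0.05 times the next rank over the number of tests. Scripts used Python 3.11.15, pandas 2.3.3 and scipy 1.17.1 and were tested on simulated data. Alternatives were stricter thresholds, a filter on mean count, other wordings, the rounded table, other correlations and other windows.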

Additional observations from a re-analysis of the deposited data

How the results depend on the processing

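The number of P450 genes with rows held within 1.5 times under most alternatives, but part of this was fixed in advance. Stricter thresholds and the count filter cannot raise the 0 falls under PCB153. The words "cytochrome P450" alone match the same genes, and the rounded table is a copy of the same rows. For PCB180 at 96 h, 1 rose with an adjusted p under 0.001, with a log2 fold change of size 1.5 or more, or of size 2 or more, in place of 3, and 0 fell with an adjusted p under 0.001, in place of 1. With any wording of P450, 1 fell under PCB153 in place of 0, and 2 fell under PCB180; with pisatin demethylases as well, a choice made after seeing the data, these falls were again 1 and 2, and 5 rose under PCB180. Without the lowest 25% of genes by mean count (77.5 or less), ptg000006l.506 dropped out. The benzoate 4-monooxygenase (ptg000027l.308) difference, PCB180 minus PCB153, was -0.68 at an adjusted p of 0.276. By the same normal test it passed the threshold with an assumed correlation of 0.75 (-0.68, adjusted p 0.0106). It did not with 0, 0.25 or 0.53 (adjusted p 0.225 to 0.998), the last matched to the direct comparison's row after seeing the data. Adjustment over all tested genes did not pass either. It counted each gene without rows in both comparisons as showing no difference and could only raise the adjusted p, so nothing is read from it. With equal variance, 2 to 5 libraries per group give a correlation of at most 0.714. Genes with rows near P450 genes numbered 2 within 1 gene number and 13 within 10, in place of 7. The rounded table kept the direction of all 7 P450 rows, which rounding could not have turned at log2 fold changes of size 1 or more. Leaving out each replicate was not run, and 1 library's part in a value was not tested, since no values per sample were used. No paired analysis was possible because the columns carry comparisons and no replicates.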

Other observations

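How many libraries entered each deposited fit is stated in no source used here. The standard errors bear on it. Over the 171 genes with rows in both comparisons, the standard error under PCB180 was 1.054 times that under PCB153 at 96 h, and in the 1 row that sets PCB180 directly against PCB153 it was 0.947 times that of the same gene under PCB180 against control, as given in the authors' deposited table. With equal variance in every group, 5 libraries in each would give 1 for both ratios. Of the 64 combinations of 2 to 5 libraries per group, the nearest to both observed ratios was 4 control, 5 PCB153 and 4 PCB180 libraries, which gives 1.054 and 0.949. Whether libraries were left out of the authors' fit was not tested. The pattern was noticed in these data, and the second ratio rests on a single gene.

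The neighbours of the pisatin demethylases were looked up after their values were seen, and within 5 gene numbers each has 1 that rose and 1 that fell. Beside ptg000006l.130, which rose under both congeners, the adjacent major facilitator transporter (ptg000006l.129) fell by 1.01 ± 0.32 on the log2 scale under PCB153, and an unannotated gene (ptg000006l.126) rose by 1.85 ± 0.62 under PCB180, as given in the authors' deposited table. Near ptg000009l.211, which rose under PCB180, an NmrA-like protein (ptg000009l.214) rose by 1.12 ± 0.34 and an unannotated gene (ptg000009l.207) fell by 2.04 ± 0.60 on the log2 scale under PCB180, as given in the authors' deposited table.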
